A study of Mus musculus with 2 samples.

Results

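The cells described here are wound cells from mice with floxed Phgdh in which Phgdh transcripts either were or were not detected. They were selected on measured values: within the floxed pools at 3 and 5 days post wounding (dpw), a cell with at least 3 Phgdh UMIs (unique molecular identifiers, each standing for 1 captured transcript) was called retaining, and a cell with 0 Phgdh UMIs was called null. A cell was a barcode with at least 10000 gene UMIs, at most 10% mitochondrial UMIs, and 1 hashtag that had at least 20 UMIs and at least 70% of its hashtag UMIs. There were 192 retaining and 1489 null cells, so 1681 of the 4829 cells in the series that passed these filters. The retaining cells numbered 36 at 3 dpw and 156 at 5 dpw. The null cells numbered 409 and 1080, and the 303 floxed wound cells with 1 or 2 Phgdh UMIs belong to neither group.

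All mice were C57B6/J and carried Sox9-CreER and R26-LSL-YFP, with either Phgdh fl/fl or Phgdh +/+ alleles. Sox9-CreER is a drug-inducible recombinase driven by regulatory sequence of Sox9, a transcription factor gene of hair follicle stem cells, and R26-LSL-YFP turns on a yellow fluorescent protein in cells where the recombinase acted. Live YFP-positive cells with high integrin-α6 were sorted from wounded skin after removal of cells bearing CD140a, CD117, CD31 or CD45, and single-cell 3′ RNA and hashtag libraries were made from 6 hashtagged conditions run together. Each condition was 1 pool of cells from males and females. The number of mice per pool, the induction schedule and the floxed exons are not given in the sources used here. YFP therefore marks recombination at the reporter, not at both Phgdh alleles. Because 3′ reads were counted, it cannot be told apart whether a Phgdh UMI in a floxed cell came from an intact or a recombined allele.

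PHGDH catalyses the first and committed step of serine synthesis from the glycolytic intermediate 3-phosphoglycerate, PSAT1 and PSPH complete the pathway, and SHMT enzymes pass serine on to glycine and folate-bound one-carbon units used for nucleotides. When amino acids run short, the transcription factor ATF4 raises the genes of this pathway together with amino acid transporters and aminoacyl-tRNA synthetases. In skin, hair follicle stem cells leave the follicle after wounding and contribute cells to the repairing epidermis.

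Pool identity rests on antibody hashtags of 15 bases. They are shown here because the floxed and +/+ cells were sequenced in 1 capture and are told apart by these letters alone. Capitals mark the bases at which a hashtag differs from that of the other genotype at the same time.
fl/fl 3 dpw: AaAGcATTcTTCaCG
+/+ 3 dpw: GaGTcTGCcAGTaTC
fl/fl 5 dpw: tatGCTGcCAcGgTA
+/+ 5 dpw: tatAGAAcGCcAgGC
The floxed and +/+ hashtags differed at 11 of 15 bases at 3 dpw and at 9 of 15 at 5 dpw, and no wound hashtag came closer than 7 mismatches to any other of the 6.

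Phgdh lies on chromosome 3, from 98313171 to 98339969 in GRCm38.p6 (the assembly that mm10 names), and chose the groups, so its values are a description. Of the 506 floxed cells at 3 dpw, 7.12% were retaining (95% exact binomial interval 5.03 to 9.71), and of the 1478 at 5 dpw 10.6% (9.03 to 12.2). The same cut held 58.7% of 1316 cells in the +/+ pool at 3 dpw and 64.1% of 1427 at 5 dpw. Intervals throughout cover counting error only, since cells of 1 pool are not replicates, and no p-value is given. With each cell thinned to 20000 UMIs, 3.51% and 5.52% of the floxed cells at 3 and 5 dpw kept at least 3 Phgdh UMIs, against 38.7% and 46.7% of the +/+ cells. That left out 57, 131, 175 and 253 shallower cells of the fl/fl 3 dpw, fl/fl 5 dpw, +/+ 3 dpw and +/+ 5 dpw pools.

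**Figure D1:**
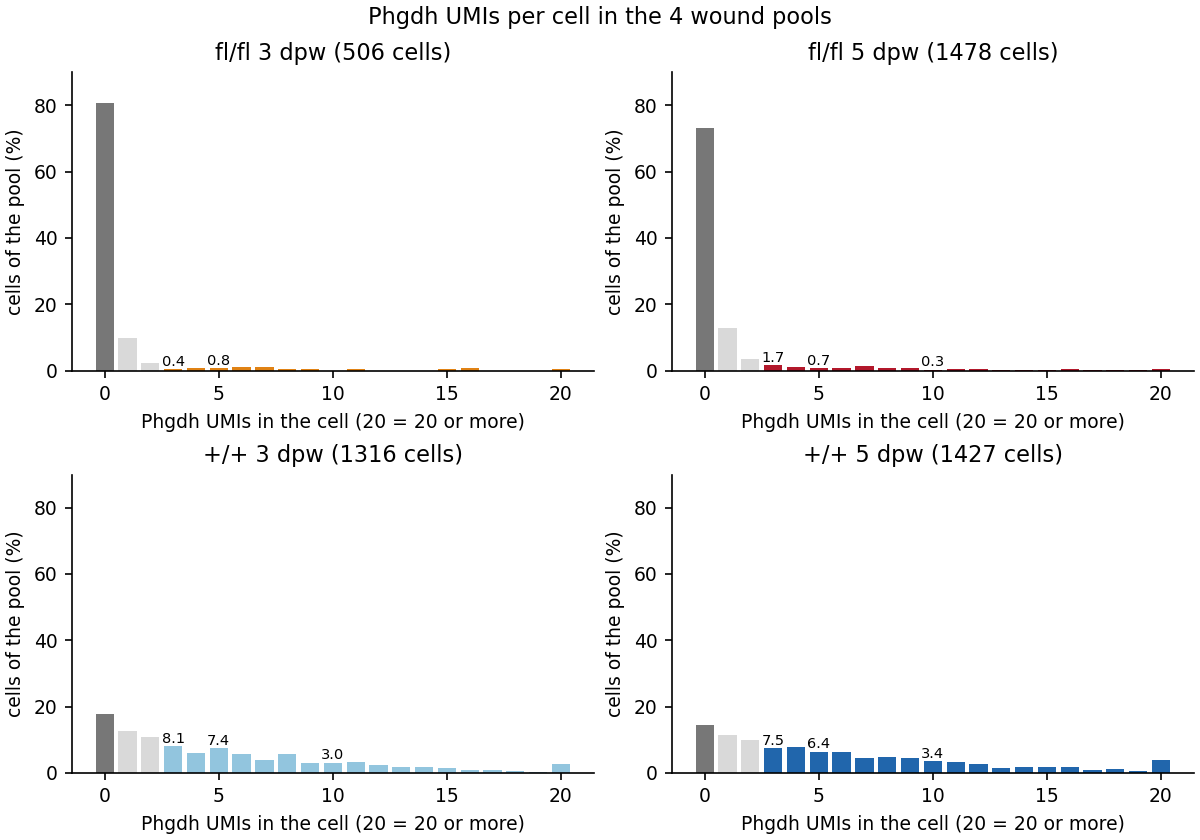
Percent of cells (y) by number of Phgdh UMIs in the cell (x) in each of the 4 wound pools; dark grey is 0, light grey is 1 or 2, colour is 3 or more, and 20 stands for 20 or more. The floxed pools held 80.8% and 73.1% of cells at 0, and the +/+ pools 17.6% and 14.6%.

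Phgdh per UMI sequenced was lower in retaining cells than in +/+ cells that passed the same cut, but depth differed. The retaining cells had medians of 67795 and 63453 gene UMIs at 3 and 5 dpw, against 48329.5 and 46154.5 in those +/+ cells. A cut of 3 UMIs stands at a lower level in a deeper cell, and the part of depth in this difference was not tested. Summed over cells, Phgdh stood at 120.5 counts per 1000000 gene UMIs (CPM, 95% Poisson interval 108.1 to 133.9) in retaining cells at 3 dpw and at 129.2 CPM (122.4 to 136.4) at 5 dpw. The +/+ cells with at least 3 UMIs stood at 161.6 and 175.6 CPM. The median was 7 Phgdh UMIs per cell in all 4 groups, and the highest retaining cell had 27 at 3 dpw and 31 at 5 dpw. Just inside the cut, 2 cells at 3 dpw and 25 at 5 dpw had exactly 3 UMIs (58.4 and 46.6 CPM), and just outside it 12 and 51 cells had exactly 2 (45.8 and 37.7 CPM). Barcodes with too few UMIs to be cells, which sample free RNA, held Phgdh at 56.1 CPM, above the 29.0 and 22.3 CPM of floxed cells with 1 or 2 UMIs, and the part of free RNA in the retaining group was not tested. A pseudogene, Phgdh-ps1, is annotated on chromosome 7 (83710887 to 83711911) and could share reads with Phgdh.

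Retaining cells were deeper than null cells. Their median was 67795 gene UMIs at 3 dpw and 63453 at 5 dpw, against 44640 and 44473.5 in null cells, and 38.9% and 26.3% of them exceeded 80000 UMIs, against 8.07% and 11.9%. From the shallowest to the deepest of 6 depth bins, the retaining share went from 1 of 57 cells to 7 of 10 at 3 dpw and from 1 of 131 to 9 of 29 at 5 dpw. Mitochondrial shares were close, with medians of 3.36% and 3.67% in retaining and 4.26% and 4.12% in null cells.

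**Figure D2:**
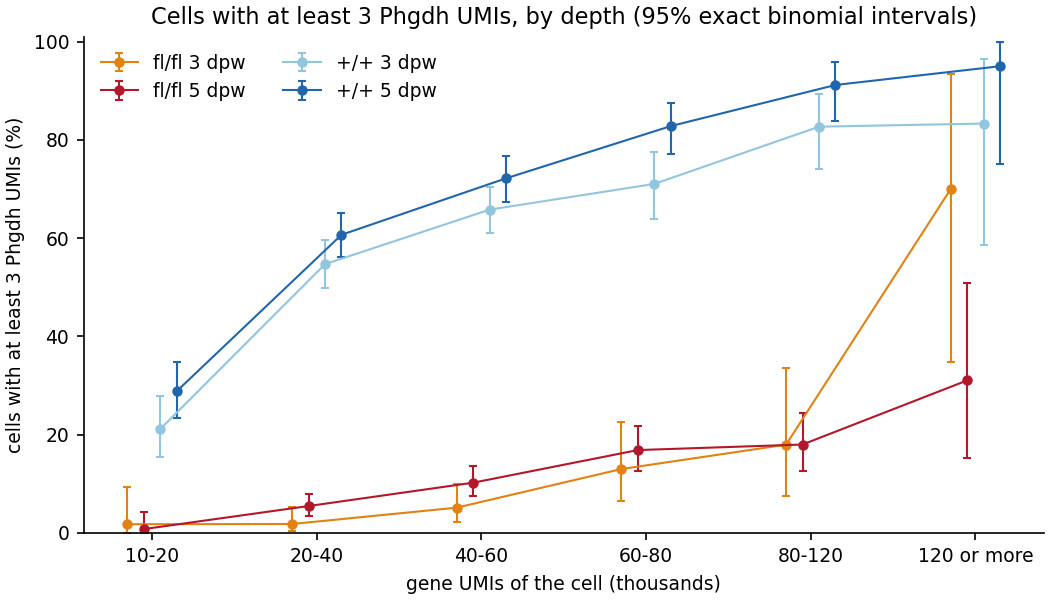
Percent of cells with at least 3 Phgdh UMIs (y, with 95% exact binomial intervals) in 6 bins of gene UMIs per cell (x, in units of 1000 UMIs) for the 4 wound pools. The share is higher in deeper bins in every pool, and in each bin the floxed pools sit below the +/+ pool of the same time.

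Retaining cells also carried more hashtag UMIs of +/+ pools. The median +/+ share of their hashtag UMIs was 5.59% at 3 dpw and 7.59% at 5 dpw, against 2.28% and 4.35% in null cells. The top hashtag was under 90% in 16 of 36 (44.4%) and 79 of 156 (50.6%) retaining cells, and in 19.1% and 32.0% of null cells. The floxed wound pools held few cells with female transcripts: at least 2 Xist UMIs were found in 2 of 36 and 3 of 156 retaining cells and in 0 of 409 and 3 of 1080 null cells, although the labels describe both sexes. In the +/+ cells with at least 3 Phgdh UMIs the share was 31.5% and 17.0%. In the +/+ cells with 0 Phgdh UMIs it was 37.1% and 35.6%. At 5 dpw the intervals of these +/+ shares, 14.6 to 19.6 and 29.1 to 42.5, did not overlap. The sides of the +/+ split at 5 dpw thus differed in sex make-up, and its part in the +/+ folds was not tested. All 5 retaining cells with Xist also held at least 2 UMIs of 4 Y-linked genes, and so did the 3 null cells with Xist. The share with such Y-linked UMIs was 97.2% and 98.7% of all retaining cells and 91.7% and 92.4% of all null cells. Droplets holding cells of 2 pools were removed only by the 70% hashtag rule and no doublet caller was run, so the part of mixed droplets in the results below was not tested beyond the stricter hashtag cut given there.

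Most genes differed by less than 1.5-fold between retaining and null cells of the same wound. Of 2763 genes averaging 50 CPM or more over both groups at 3 dpw, 184 (6.66%) differed by at least 1.5-fold, 44 higher (1.59%) and 140 lower (5.07%) in retaining cells. At 5 dpw 37 of 2808 genes (1.32%) did, 14 higher (0.499%) and 23 lower (0.819%). The same split of +/+ cells gave 797 of 2860 genes (27.9%) at 3 dpw and 546 of 2817 (19.4%) at 5 dpw. The +/+ cells carry intact alleles, so all of them could make the Phgdh transcript. Even so, 17.6% and 14.6% of them had 0 Phgdh UMIs, so a count of 0 does not by itself show a lost allele.

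The counts depend on which cells are kept. With the top hashtag at 90% or more, 128 genes passed at 5 dpw, 64 higher and 64 lower, from 77 retaining cells, and 542 in +/+ cells at 5 dpw. With cells over 80000 UMIs left out, 294 passed at 3 dpw and 70 at 5 dpw, of which 37 were higher and 33 lower. With both limits 85 were higher and 76 lower at 5 dpw. Weighting null cells to the depth of the retaining cells gave 368 and 35, and at 5 dpw 5 of these were higher and 30 lower, so the more frequent direction at 5 dpw depends on the setting. At 3 dpw lower genes were more frequent in each of these settings, but leaving out the 1 retaining cell richest in cornified UMIs took the higher genes from 44 to 24, and leaving out each gene's top cell gave 15 higher and 210 lower. TMM scaling left 5 genes higher and 27 lower at 5 dpw, and in +/+ cells at 5 dpw it moved the split from 289 higher and 257 lower to 489 and 172, with the median of all genes going from 0.05 to 0.18 on the log2 scale.

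**Figure D3:**
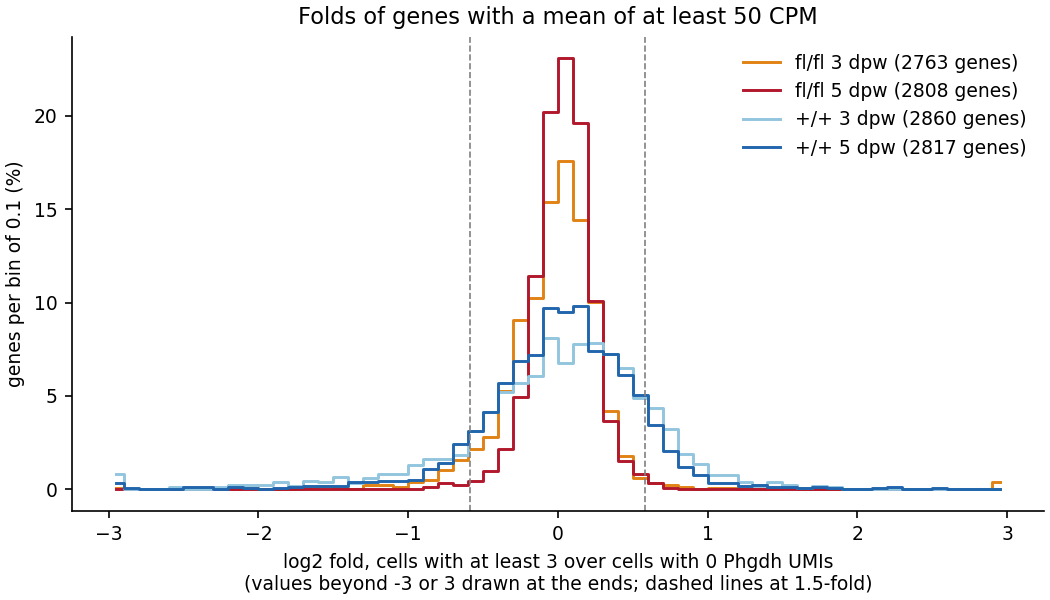
Percent of genes (y) per bin of log2 fold, at least 3 over 0 Phgdh UMIs (x), for genes averaging 50 CPM or more, 1 line per wound pool. The floxed lines are narrower than the +/+ lines: 6.66% and 1.32% of genes lie past the dashed 1.5-fold lines, against 27.9% and 19.4%.

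The 2 times shared more of the lower than of the higher genes. Among the 2642 genes of at least 50 CPM at both times, 112 were lower past 1.5-fold at 3 dpw and 22 at 5 dpw, and 12 were lower at both, which is 10.7% of the first list and 54.5% of the second. Of the 112, 84 had a fold below 0 at 5 dpw too. Of the 29 higher at 3 dpw and the 12 higher at 5 dpw, 1 was shared, the growth factor gene Ereg. Across genes the log2 folds of the 2 times had a Pearson r of 0.36, a description over genes of 2 pools.

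The other serine synthesis genes were near equal in retaining and null cells. Psat1 (chromosome 19, 15905123 to 15925059) stood at 102.3 CPM in retaining and 80.7 in null cells at 3 dpw, and at 96.6 and 84.7 at 5 dpw, log2 folds of 0.34 (0.16 to 0.52) and 0.19 (0.09 to 0.29). Psph, the phosphatase of the last step, stood at 129.9 against 107.1 CPM and at 136.0 against 127.3, log2 folds of 0.28 and 0.10. In +/+ cells the same split separated both genes further: Psat1 had log2 folds of 1.17 and 0.99, and Psph of 0.99 and 0.51. Psat1 in floxed null cells was thus nearer to +/+ cells with at least 3 Phgdh UMIs, at 93.6 and 92.5 CPM, than to +/+ cells with none, at 41.8 and 46.4 CPM. The +/+ cells with none were shallower than the null cells, with medians of 33098 and 24738 gene UMIs. They were also a smaller share of their pools, 17.6% and 14.6% against 80.8% and 73.1%. The part of either in this difference was not tested.

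Of the 9 genes listed for serine and glycine synthesis, 7 reached 10 CPM, and 0 of these passed 1.5-fold in either direction at either time. Among all genes of at least 10 CPM, 2.49% were higher and 7.55% lower past 1.5-fold at 3 dpw, and 1.05% and 1.59% at 5 dpw. The list's median log2 fold was 0.18 at 3 dpw and 0.10 at 5 dpw, beside −0.04 and 0.03 over all those genes, and 0.87 and 0.51 in +/+ cells. Shmt2, the mitochondrial serine hydroxymethyltransferase, had folds of 0.24 and 0.21, and Shmt1, its cytosolic partner, of 0.18 and 0.17. Of 9 measured genes of folate one-carbon metabolism, 0 were higher and 1 lower past 1.5-fold at 3 dpw, and 0 passed at 5 dpw, with medians of 0.06 and 0.30; the lower gene was Mthfd1l (−0.59). Mthfd2, the mitochondrial folate dehydrogenase, had folds of 0.06 and 0.21, Gcsh, a glycine cleavage subunit, of 0.40 and 0.31, and Tyms, which makes thymidylate, of 0.15 and 0.46.

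ATF4 target genes were near equal in retaining and null cells. Its 15 measured members of 22 had a median log2 fold of −0.09 at 3 dpw, with 0 higher and 1, Sesn2, lower past 1.5-fold, and of 0.04 at 5 dpw, with 0 in either direction. The median ranged from −0.26 to −0.03 and from −0.01 to 0.09 over the other processing settings. The same split of +/+ cells gave medians of −0.23 and 0.14, also within 1.5-fold. There 1 member was higher and 3 lower past 1.5-fold at 3 dpw, and 1 higher and 1 lower at 5 dpw. Atf4 itself stood at 130.3 and 128.1 CPM in retaining and null cells at 3 dpw and at 149.2 and 140.3 at 5 dpw, so the intervals of its folds were −0.14 to 0.18 and 0.01 to 0.17. Asns, asparagine synthetase, had folds of 0.11 (−0.10 to 0.32) and 0.26 (0.15 to 0.36). Cebpb, a transcription factor gene, had a fold of −0.47 at 3 dpw (299.1 against 415.0 CPM) and of 0.00 at 5 dpw (362.8 against 361.8). The intervals of Trib3 (folds of −0.20 and 0.11) at both times and of the cystine transporter gene Slc7a11 (0.08) at 3 dpw included 0, and Chac1 and Slc1a4 were at or below 3.63 CPM in both groups. Ddit3 is listed under 2 gene identifiers and was not analysed here.

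Amino acid supply genes mostly differed by less than 1.5-fold. All 20 aminoacyl-tRNA synthetase genes were measured and 0 passed 1.5-fold at either time, with medians of 0.12 and 0.15, though 17 of 20 had folds above 0 at 3 dpw and 20 of 20 at 5 dpw. Of the amino acid transporters, 0 of 6 passed at 3 dpw and 1 of 7, Slc6a14, was higher at 5 dpw, with medians of −0.03 and 0.33 and with folds above 0 in 3 of 6 and 7 of 7. Slc7a5, a leucine transporter subunit, had folds of 0.49 and 0.44, and Slc38a2, a neutral amino acid transporter, of −0.52 and 0.06.

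**Figure D4:**
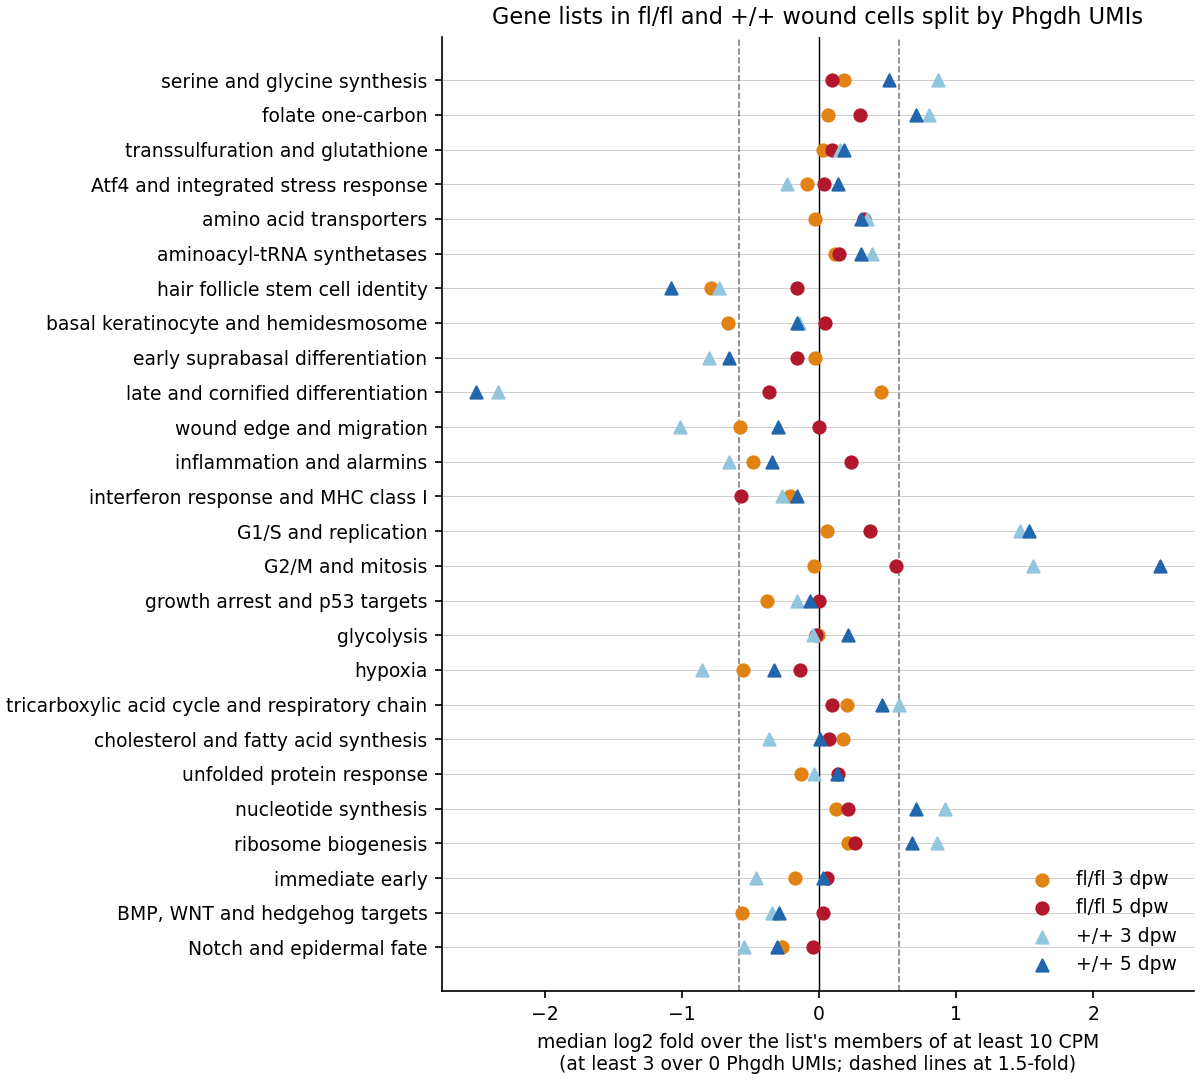
Median log2 fold (x), at least 3 over 0 Phgdh UMIs, for 26 gene lists (rows); circles are the floxed and triangles the +/+ wound pools, and dashed lines mark 1.5-fold. Serine synthesis and ATF4 lists sit near 0 in floxed cells, and the ATF4 list also lies within the 1.5-fold lines in +/+ cells (−0.23 and 0.14). The cell cycle lists reach 1.47 to 2.49 in +/+ cells against −0.04 to 0.56 in floxed cells.

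Cell cycle genes were higher in retaining cells at 5 dpw and near equal in sum at 3 dpw. At 5 dpw 10 of 26 G2/M genes were higher past 1.5-fold and 0 lower, with a median log2 fold of 0.56, while at 3 dpw 0 of 26 passed and the median was −0.04. The 5 dpw median ran from 0.32, with null cells weighted to the same depth, to 0.91, with mixed hashtags and cells over 80000 UMIs left out. At 3 dpw the depth weighting gave −0.53 for the list and −0.85 for Mki67, so that near-equality does not hold at matched depth. The 23 measured G1/S genes had medians of 0.06 and 0.37, with 1, Chaf1b, higher past 1.5-fold at 5 dpw. Whether the 2 times differ was not tested.

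Single cells varied widely. The summed G2/M level per cell at 5 dpw had a median of 1713 CPM in retaining cells (quartiles 388.4 and 3453) and of 278.8 in null cells (78.8 and 2074). At 3 dpw the medians were 1122 and 413.9, while the levels summed over all cells were 1731 and 1742 CPM. The middle of the distribution was thus higher in retaining cells at both times, and the quartile ranges overlapped.

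Mki67, a marker of cycling cells, stood at 185.6 CPM in retaining and 133.0 in null cells at 5 dpw, a log2 fold of 0.48 (0.41 to 0.55), and at 131.3 against 134.2 at 3 dpw. Top2a, which untangles DNA before mitosis, had folds of −0.47 at 3 dpw and 0.44 at 5 dpw. At 5 dpw the mitotic genes Cdc20 (130.5 against 81.7 CPM), Cdk1 (114.5 against 75.2), Ube2c (268.0 against 175.7) and Ccna2 (58.5 against 36.0) had folds of 0.68, 0.61, 0.61 and 0.70. The replication genes Mcm5, Mcm7 and Uhrf1 had folds of 0.47, 0.37 and 0.58 at 5 dpw and of 0.07, 0.22 and 0.02 at 3 dpw.

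The null cells of floxed wounds held more G2/M transcripts than +/+ cells without Phgdh UMIs. Their summed G2/M level was 1742 CPM at 3 dpw and 1644 at 5 dpw, against 744.4 and 369.6 in those +/+ cells. The null cells were 80.8% and 73.1% of their pools, and those +/+ cells 17.6% and 14.6% of theirs. Median depth was 44640 and 44473.5 UMIs in null cells, against 33098 and 24738. The part of depth and of this unequal selection in the gap was not tested. In +/+ cells, where all 26 genes were higher past 1.5-fold at both times, the medians were 1.56 and 2.49. Cells with at least 3 Phgdh UMIs reached 1731 and 2419 CPM in floxed and 2225 and 2007 CPM in +/+ wounds, so the wider gap in +/+ wounds lay mostly in the cells without Phgdh UMIs.

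Within the retaining cells at 5 dpw, the G2/M level was higher where Phgdh was higher: 1935 CPM in 43 cells with 3 or 4 UMIs, 2233 in 65 cells with 5 to 9, and 3008 in 48 cells with at least 10. The 242 cells with 1 or 2 UMIs stood at 2063 CPM, above the cells with 3 or 4. At 3 dpw the levels were 1259, 1339 and 2307 CPM in 6, 18 and 12 cells. Over the same 3 strata the median depth was 57911, 63655 and 83615 UMIs at 3 dpw and 63570, 60228 and 68225.5 at 5 dpw. Psat1 showed no such order at 5 dpw (99.4, 91.3 and 100.4 CPM).

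Upper follicle genes were lower in retaining cells at both times. Of the 9 markers of the upper follicle and junctional zone, 8 were measured at 3 dpw and 6 of them were lower past 1.5-fold with 0 higher. At 5 dpw 5 of 7 were lower and 0 higher. The median log2 folds were −0.88 and −0.65. With null cells weighted to the depth of the retaining cells, the 3 dpw median was −0.45, within 1.5-fold. At 5 dpw the median ran from −0.98 to −0.52 over the other settings. The depth weighting gave folds of −0.13 and 0.10 for Lrig1 of this list, while Krt79 stayed lower past 1.5-fold at both times. The summed marker level was 2668 CPM in retaining and 5017 in null cells at 3 dpw, and 1799 and 2793 at 5 dpw. The same markers were lower in the +/+ split (3705 against 11207 CPM and 2709 against 5674), with 6 of 8 and 7 of 8 past 1.5-fold.

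Most of this sum was Krt17, named after its values were seen, a keratin of follicle and wounded epidermis on chromosome 11 (100256215 to 100261029). It stood at 1876 CPM in retaining and 3789 in null cells at 3 dpw and at 1284 and 2020 at 5 dpw, log2 folds of −1.01 (−1.05 to −0.97) and −0.65 (−0.68 to −0.63). The median cell held 695.6 and 2191 CPM at 3 dpw and 537.9 and 735.9 at 5 dpw, and the quartile ranges overlapped at both times. At 3 dpw 14 of 36 retaining cells (38.9%, 23.1 to 56.5) and 270 of 409 null cells (66.0%, 61.2 to 70.6) held at least 1000 CPM. Its fold ran from −1.68 to −0.57 and from −0.86 to −0.46 over the other settings.

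Krt79 had the lowest fold of the genes of at least 50 CPM at 5 dpw, but few cells carried most of it. This keratin of the upper follicle (chromosome 15, 101929332 to 101940324) stood at 20.3 CPM in retaining and 183.3 in null cells at 3 dpw and at 14.5 and 97.7 at 5 dpw, log2 folds of −3.17 (−3.57 to −2.80) and −2.75 (−2.99 to −2.51). In null cells, 19 of 409 (4.65%) and 26 of 1080 (2.41%) held at least 1000 CPM, and they held 91.9% and 90.5% of the Krt79 UMIs. No retaining cell did: 0 of 36 allows a share of up to 8.33% and 0 of 156 of up to 1.92%. Without those cells the level in null cells was 15.5 and 9.39 CPM, below that of the retaining cells. At 100 CPM the shares were alike, 8.33% against 9.78% and 3.85% against 4.72%. The counting intervals of the fold do not cover this spread between cells; the cut-offs of 100 and 1000 CPM were chosen after the values were seen. Defb6, a defensin gene of the same marker list, passed 1000 CPM in 9 null cells at each time and in 0 retaining cells. Without those cells the null level was still above the retaining one, 19.9 against 2.10 CPM at 3 dpw and 6.86 against 3.49 at 5 dpw.

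**Figure D5:**
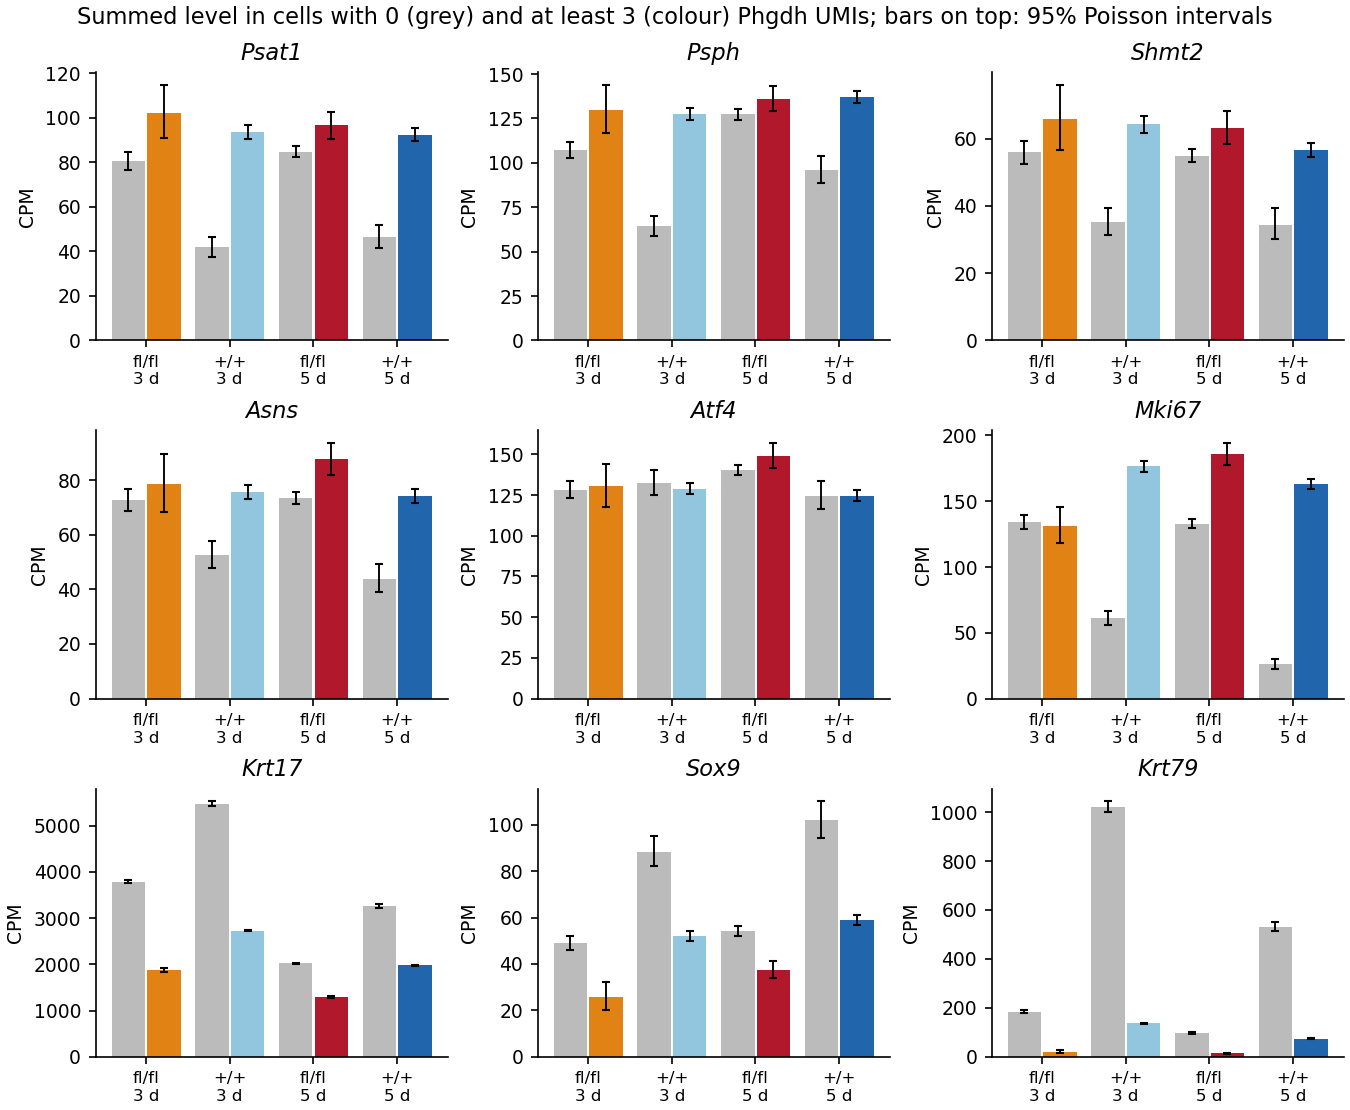
Summed level (y, CPM, with 95% Poisson intervals) of 9 genes in cells with 0 (grey) and at least 3 (colour) Phgdh UMIs in the floxed and +/+ wound pools at 3 and 5 dpw (x, d = days). Psat1, Psph, Shmt2 and Asns have closer bars in floxed than in +/+ cells, and Krt17, Sox9 and Krt79 are lower in retaining cells of both floxed pools.

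Follicle stem cell genes were lower in retaining cells, mainly at 3 dpw. Of 22 measured genes that mark stem cells of the follicle, 19 were lower past 1.5-fold and 0 higher at 3 dpw (median −0.79), and 4 of 16 (Nfatc1, Krt15, Postn and Sfrp1) were lower and 0 higher at 5 dpw (median −0.16). The 5 dpw median became 0.12 with null cells weighted to the depth of the retaining cells. The +/+ medians were −0.73 and −1.08. Sox9, whose regulatory sequence drives the recombinase, stood at 25.6 CPM in retaining and 49.0 in null cells at 3 dpw and at 37.4 and 54.2 at 5 dpw, folds of −0.94 (−1.30 to −0.59) and −0.53 (−0.69 to −0.38). The fold was below 0 in all 11 other settings at 3 dpw and all 10 at 5 dpw.

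Postn, which encodes a matrix protein, stood at 53.9 against 264.5 CPM at 3 dpw and 16.6 against 49.7 at 5 dpw, folds of −2.29 and −1.58. At least 100 CPM was found in 4 of 36 (11.1%, 3.11 to 26.1) retaining and 148 of 409 (36.2%, 31.5 to 41.1) null cells at 3 dpw, and in 8 of 156 (5.13%, 2.24 to 9.85) and 147 of 1080 (13.6%, 11.6 to 15.8) at 5 dpw. The share of cells past 100 CPM, a cut-off chosen after the values were seen, was thus lower in retaining cells of these pools. The intervals cover counting error only. With null cells weighted to the depth of the retaining cells, the fold at 5 dpw was −0.41, within 1.5-fold. Krt15, a bulge keratin, had folds of −2.24 and −0.71. With null cells weighted to the depth of the retaining cells, they became −0.23, within 1.5-fold, and 0.60. Cd34, a surface marker of the bulge, was at 5.25 against 23.3 CPM at 3 dpw and at 3.98 against 4.12 at 5 dpw.

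Adhesion and migration genes differed at 3 dpw. Of 14 measured basal and hemidesmosome genes, 8 were lower past 1.5-fold and 0 higher at 3 dpw, and 0 passed at 5 dpw (medians −0.66 and 0.04). The list's summed level went the other way at 3 dpw, 37416 against 33136 CPM, through Krt14 and Krt5, whose folds were 0.28 and 0.13. Lamb3 and Lama3, which encode laminin chains of the epidermal basement membrane, had folds of −1.64 and −1.49 at 3 dpw and of −0.27 and −0.18 at 5 dpw. In +/+ cells at 3 dpw their folds were −1.57 and −1.70.

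Of 30 measured wound edge and migration genes, 15 were lower and 1, Slpi, higher past 1.5-fold at 3 dpw, and 3 of 27 (Krt17, Mmp9 and Mmp13) lower and 2 (Mmp3 and Areg) higher at 5 dpw (medians −0.58 and 0.00). Mmp13, a collagenase gene, was at 1.75 against 118.7 CPM and at 14.0 against 36.3, and the stromelysin gene Mmp10 at 29.1 against 121.4 and at 3.88 against 14.6. Itga2, which encodes a collagen receptor subunit, had folds of −2.24 and −0.12. Of 13 measured hypoxia genes, 6 and 1 were lower past 1.5-fold and 0 higher (medians −0.56 and −0.14). Bnip3, a mitophagy receptor gene, had folds of −1.06 and −0.65, Vegfa, an angiogenic factor gene, of −1.15 and −0.40, and Ndrg1 of −1.26 and −0.23. With null cells weighted to the depth of the retaining cells, the 3 dpw hypoxia median was −0.20 and the Bnip3 fold −0.51, within 1.5-fold. Vegfa and Ndrg1 stayed lower past 1.5-fold at 3 dpw in all 11 other settings.

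B2m was lower past 1.5-fold in retaining cells at both times. Of 10 measured interferon response and MHC class I genes, 3 (Isg15, Ifi27 and B2m) were lower and 0 higher past 1.5-fold at 5 dpw (median −0.57). At 3 dpw 2 of 11 (Psmb8 and B2m) were lower and 3 (Isg15, Ifi35 and Cxcl10) higher (median −0.21), with 99.5% of the Isg15 UMIs of the retaining cells in 1 cell. B2m, the light chain of MHC class I, stood at 115.2 against 194.4 CPM at 3 dpw and at 68.4 against 104.1 at 5 dpw, folds of −0.75 (−0.92 to −0.59) and −0.60 (−0.72 to −0.49). H2-K1, a heavy chain, was within 1.5-fold at both times, with folds of −0.50 and −0.38, and the folds were −0.50 and −0.84 for the interferon-induced Ifi27. In the +/+ split B2m had folds of −0.32 and −0.81 and H2-K1 of −0.42 and −0.70. With null cells weighted to the depth of the retaining cells, the B2m folds were −0.28 and −0.14, within 1.5-fold.

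Among genes of at least 50 CPM in which no single cell held over 20% of the higher group's UMIs, the highest folds at 3 dpw were those of Ass1 (204.9 against 99.1 CPM, fold 1.05), Tent5a (0.94), Mgst1 (0.88), Ly6a (390.5 against 213.4 CPM, 0.87), Lancl1 (0.78), Klk13 (0.76), Fabp5 (0.75) and Parp1 (0.73). Ass1 makes argininosuccinate in arginine synthesis, Ly6a encodes the surface antigen SCA1, and Fabp5 encodes an epidermal fatty acid binding protein. At 5 dpw Ass1 and Ly6a had folds of 0.21 and 0.19 and Fabp5 of −0.20. In +/+ cells Ass1 had folds of 1.15 and 1.29 and Ly6a of 1.49 and 1.17.

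The genes with the highest folds at 5 dpw were, beside Cdc20, Cdk1 and Ube2c, the EGF receptor ligand genes Ereg and Areg, Lgals1, Ptgs2 and Smim3. Ereg, the gene higher at both times, stood at 134.2 against 46.8 CPM at 3 dpw and at 158.1 against 75.7 at 5 dpw, folds of 1.52 and 1.06. At 3 dpw 1 cell held 40.5% of the Ereg UMIs of the retaining group, and the fold turned to −1.70 with cells over 80000 UMIs left out. At 5 dpw 42 of 156 retaining (26.9%, 20.1 to 34.6) and 145 of 1080 null cells (13.4%, 11.5 to 15.6) held at least 100 CPM. Areg had folds of −0.16 and 0.68, the latter 0.17 without mixed hashtags and cells over 80000 UMIs. Lgals1, which encodes galectin-1, stood at 332.7 against 191.2 CPM at 5 dpw, with a median cell at 236.5 against 61.5, and had folds of −0.30 and 0.80.

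Under the same limit, the genes with the lowest folds at 3 dpw, beside Postn, Krt15 and Mmp10, were Adgrl3 (−2.69), Ecm1 (−2.35), Procr (−1.83), Gpc6 (−1.66) and Fst (−1.65); Mmp13 and Krt79, given above, were lower still but exceeded that limit. At 5 dpw, after Krt79, they were Sprr2d (−1.36), Cldn1 (−0.90), Sostdc1 (−0.89), Apoe (−0.87), Il33 (−0.79), Hopx (−0.79) and Ndufa4l2 (−0.79). The 12 genes lower past 1.5-fold at both times were Krt15, Krt17, Krt79, Cdh13, Adgrl2, Sostdc1, Apoe, Fst, Calml3, Ssbp2, B2m and Ifitm3. With null cells weighted to the depth of the retaining cells, Cdh13 and Sostdc1 had folds of −0.05 and −0.04 at 5 dpw, and Krt15 and Fst of 0.60 and 0.01. At 3 dpw the same weighting gave −0.23 for Krt15 and 0.31 for Sostdc1, while Cdh13 and Fst stayed lower past 1.5-fold in all 11 other settings. Apoe, which carries lipids, stood at 1289 against 2140 CPM and at 807.1 against 1473, and its median cell held 582.6 against 1195 and 427.5 against 1009. With null cells weighted to the depth of the retaining cells, its folds were −0.13 and −0.05. The same weighting brought Adgrl2 (−0.39) and Ssbp2 (−0.37) within 1.5-fold at 5 dpw. At 3 dpw it did so for Calml3 (−0.22) and Krt17 (−0.57). B2m, given above, came within 1.5-fold at both times. Krt79 stayed lower past 1.5-fold at both, with folds of −2.245 and −1.962.

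Several late differentiation genes at 3 dpw depended on 1 cell. Of 14 measured genes of late and cornified differentiation, 6 were higher and 0 lower past 1.5-fold at 3 dpw (median 0.45), and 2 were higher and 4 lower at 5 dpw (median −0.37). A single retaining cell held 99.8% of the group's UMIs of Crct1, a cornification gene, at 3 dpw, and 1 cell held 90.2% at 5 dpw. Without the cell richest in granular and cornified UMIs, the fold of Crct1 at 3 dpw went from 3.33 to −5.86, that of Hopx from 0.80 to −1.81 and that of Sprr2d from 0.85 to −0.46. The +/+ medians of the list were −2.34 and −2.50. Krt1 and Krt10, keratins of the first suprabasal layers, had folds of 1.08 and 1.19 at 3 dpw and of −0.11 each at 5 dpw. Without the cell richest in granular and cornified UMIs the 3 dpw fold of Krt1 was 1.14, and that of Tgm3, a transglutaminase gene of the cornified envelope, was 1.94 in place of 2.10. With mixed hashtags and cells over 80000 UMIs left out, Krt1 and Krt10 had folds of 0.53 and 0.31 at 3 dpw, within 1.5-fold.

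Most lists of metabolism and growth had few members past 1.5-fold. At 3 and 5 dpw respectively, the numbers higher and lower were 0 and 1 of 16, then 0 of 16, for glycolysis. They were 0 of 22 at both times for the tricarboxylic acid cycle and respiratory chain, 0 of 19 at both for ribosome biogenesis, and 1 higher of 25, then 0, for cholesterol and fatty acid synthesis. Nucleotide synthesis had 2 higher of 17 (Impdh1 and Dhodh), then 0 of 16, with medians of 0.13 and 0.21, against 0.92 and 0.71 in +/+ cells. Ribosome biogenesis had medians of 0.21 and 0.26, against 0.86 and 0.68 in +/+ cells. Transsulfuration and glutathione genes had 1 higher (Hmox1) and 3 lower (Gpx2, Txnrd1 and Gstm1) of 17, then 0.

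The stress and signalling lists are to be read against the 7.55% of all genes of at least 10 CPM that were lower past 1.5-fold at 3 dpw and the 1.59% at 5 dpw. The list of growth arrest genes and p53 targets had 0 higher and 4 lower of 13 (Mdm2, Gadd45g, Sesn1 and Trp53inp1), then 0. Notch and epidermal fate genes had 0 and 3 of 15 (Jag2, Grhl3 and Sox9), then 0. The unfolded protein response had 1 lower of 16 (Sdf2l1), immediate early genes 1 lower of 17 (Klf2) and targets of BMP, WNT and hedgehog signalling 2 lower of 5 (Smad7 and Gli3), each with 0 in either direction at 5 dpw. Inflammation and alarmin genes had 1 higher (Lcn2) and 2 lower (S100a9 and Cxcl1) of 9 at 3 dpw, and 2 higher (Cxcl2 and Ptgs2) and 2 lower (Il33 and Il18) of 10 at 5 dpw. Early suprabasal genes had 5 higher and 3 lower of 20, then 1 lower (Calml3).

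Markers of non-epithelial cell types were scarce in both groups. Among other epithelial lists, sebaceous markers summed to 176.2 CPM in retaining and 117.0 in null cells at 3 dpw, and to 163.7 and 166.4 at 5 dpw. Hair matrix and inner root sheath markers summed to 29.1 and 19.7 CPM, then 64.5 and 55.5. Companion layer markers stood at 21.4 against 3.80 CPM and Merkel markers at 20.3 against 12.8 at 3 dpw, and both stayed at or below 9.89 CPM at 5 dpw. Of the non-epithelial lists, immune, melanocyte, fibroblast, endothelial and muscle or blood markers each summed to at most 57.0 CPM in retaining and null cells at both times. Kit, Cd3e and Cdh5 were each at 0 in both groups of at least 1 floxed pool.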

How the data were processed

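Single-cell 3′ RNA and hashtag libraries of 1 capture were analysed. The deposited matrix holds counts (UMIs per feature and barcode) made by the authors, and the submitters' processing notes name Cell Ranger 7.1.0, Seurat 4.3.0 and the build mm10. The matrix was unfiltered, with 2997303 barcodes and 32285 genes. There were 6579 barcodes with at least 10000 gene UMIs, 5366 of them had at most 10% mitochondrial UMIs, and 4829 of these were assigned to a hashtag. Hashtags are TotalSeq-B antibodies per the labels' protocols, and the deposited hashtag table gives their sequences and pools. No doublet caller was run. The members and gene lists were chosen with earlier results of these data known.

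Counts were summed over the cells of a group and divided by the group's gene UMIs (2854993 and 18668302 for retaining and null cells at 3 dpw, 10315141 and 52633491 at 5 dpw) to give CPM. A log2 fold is retaining over null, with an exact conditional interval of 95%, and levels have exact Poisson intervals. These and binomial (Clopper-Pearson) intervals cover counting error only, and PCR copies are collapsed by UMI. With 1 pool per condition there was no test between samples. A fold of 1.5 was used to count genes, at a mean of at least 50 CPM for all genes and 10 CPM for lists.

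Named genes were, per time, the 8 highest and 8 lowest folds among genes of at least 50 CPM whose interval left out 0 and in which no single cell held over 20% of the higher group's UMIs. Genes past 1.5-fold at both times, up to 4 members of at least 20 CPM of each list, and a fixed set of serine, ATF4, keratin and cell cycle genes were added. Ribosomal, mitochondrial, Y-linked and unnamed genes and Phgdh were left out.

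Alternatives were other Phgdh cuts (2 and 5 UMIs), the top hashtag at 90%, mitochondria at 5%, cells of at most 80000 UMIs, null cells weighted to the depth of retaining cells, equal weight per cell, TMM scaling, other minimum levels, and each gene without its top cell. Dropping mixed hashtags together with deep cells, and dropping the cell richest in cornified UMIs, were chosen after the data were seen. The fold script was tested on simulated data with 200 changed genes. Positions are from RefSeq, GRCm38.p6. Python 3.11.15, numpy 2.4.6, scipy 1.17.1, pandas 2.3.3, matplotlib 3.10.9, R 4.3.3 and, for TMM factors, edgeR 4.0.16 were used.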

Additional observations from a re-analysis of the deposited data

Results flagged for a closer look

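Some genes had folds of opposite sign in 2 comparisons, and none of these differences was tested. Hopx was higher in retaining cells at 3 dpw (0.80) and lower at 5 dpw (−0.79), a difference of 1.59, and lower in the +/+ split at 3 dpw (−2.05), a difference of 2.84. Sprr2d, a cornification gene, had folds of 0.85 and −1.36 at 3 and 5 dpw, a difference of 2.21, and of −0.99 in the +/+ split at 3 dpw, a difference of 1.83. Without the 1 retaining cell richest in granular and cornified transcripts, the 3 dpw folds of Hopx and Sprr2d were −1.81 and −0.46, which have the sign of the other comparisons. Procr, a protein C receptor gene, had folds of −1.83 and 0.60 at 3 and 5 dpw, a difference of −2.43.

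Between genotypes at 3 dpw, Cdh13, a cadherin gene, had folds of −1.56 in floxed and 0.85 in +/+ wounds, a difference of −2.41. Klk13, a kallikrein gene, had folds of 0.76 and −0.59, a difference of 1.35, and Tgm3, a transglutaminase gene, of 2.10 and −0.69, a difference of 2.80. Crct1 had folds of 3.33 and −3.78 at 3 dpw, a difference of 7.12, and of 0.75 and −2.80 at 5 dpw, a difference of 3.55. The median of the granular and cornified markers was 2.10 in floxed and −3.62 in +/+ wounds at 3 dpw, a difference of 5.73, and it was −3.96 in floxed wounds without the same cell. The fold of Crct1 at 3 dpw was −5.86 without it.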

How the results depend on the processing

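No paired analysis was possible because each condition was 1 pool with no replicate number. Precision was limited by the 36 retaining cells at 3 dpw, and 14 remained with both added filters. The retaining share at 3 dpw was 4.81% with cells over 80000 UMIs left out and 3.96% with the top hashtag at 90% as well. At 5 dpw it was 14.0% and 7.64% with Phgdh cuts of 2 and 5 UMIs, 8.11% with the top hashtag at 90%, and 6.55% with both filters. Genes past 1.5-fold at 3 dpw numbered 294 without deep cells, 368 with null cells weighted by depth, 449 at 20 CPM, 3853 with no CPM minimum (10 UMIs) and 394 with both filters. At 5 dpw they numbered 76 with a Phgdh cut of 5, 128 with the strict hashtag, 70 without deep cells, 100 with equal weight per cell, 104 at 20 CPM, 3245 with no CPM minimum and 161 with both filters. In the +/+ split they numbered 1613 and 1119 at 20 CPM and 6281 and 5750 with no CPM minimum, at 3 and 5 dpw; a lower minimum tests more genes.

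Folds at 3 dpw that changed sign are given in the order strict hashtag, without deep cells, without each gene's top cell, both filters, and without the cell richest in cornified UMIs. They were −4.20, −3.77, −2.10, −3.45 and −3.96 for the granular and cornified marker median. They were −1.96, −2.95, −1.70, −3.04 and −1.81 for Hopx, −0.51, −1.33, −0.36, −0.91 and −0.46 for Sprr2d, and −5.71, −5.82, −5.31, −6.07 and −5.86 for Crct1. At 5 dpw Crct1 was at −2.40 (cut of 5), −3.44 (strict hashtag), −2.41 (without deep cells), −2.26 (without its top cell) and −3.67 (both filters). Ereg at 3 dpw was at −1.70 without deep cells and −1.10 with both filters. With null cells weighted by depth, Sostdc1 was at 0.31 and Sfrp1 at 0.13 at 3 dpw. At 5 dpw the same weighting gave 0.16 for Sfrp1, 0.095 for the bulge marker median, 0.013 for Fst, 0.60 for Krt15 and 0.10 for Lrig1. Equal weight per cell gave 0.0088 for Sfrp1 at 3 dpw, and both filters gave −0.21 for Procr and −0.52 for Ptgs2 at 5 dpw. For other sign changes the cause was not tested. Of 691 alternative list medians 510 stayed within the error, and of 1903 alternative gene folds 1104 did. Of the 85 gene folds past 1.5-fold, 39 stayed past it in every alternative. A median or fold with no finite value under an alternative was left out.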

Other observations

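Across the Phgdh strata of floxed wounds at 5 dpw (0, 1 or 2, 3 or 4, 5 to 9, and at least 10 UMIs), the upper follicle markers summed to 2793, 2671, 2351, 1692 and 1494 CPM. The bulge markers summed to 337.9, 263.4, 405.4, 157.7 and 71.2 CPM, and the interferon and MHC class I genes to 767.2, 642.6, 714.1 and 559.2 CPM in the first 4 strata and to the least in the last. Serine and glycine synthesis genes without Phgdh stood at 442.1, 470.0, 480.3, 446.0 and 450.1 CPM and ATF4 genes at 1750, 1707, 1687, 1790 and 1965 CPM.

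In +/+ wounds at 5 dpw the same strata gave 46.4, 53.6, 73.1, 83.8 and 107.5 CPM of Psat1, higher in each successive stratum, while floxed cells gave 84.7, 93.0, 99.4, 91.3 and 100.4 CPM. Asns stood at 43.8, 57.7, 62.4, 69.2 and 83.2 CPM in +/+ and at 73.4, 82.2, 78.5, 89.1 and 93.0 CPM in floxed cells. Median depth rose over the +/+ strata from 24738 to 60863 UMIs and lay between 44473.5 and 68225.5 UMIs in the floxed strata. These strata come from 1 pool each, and neither the part of depth nor the difference between genotypes was tested.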
